A study of Mus musculus with 9 samples.

Results

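The nephron progenitors of the cap mesenchyme are held in their uncommitted state by a small set of transcription factors and coactivators, and 9 of these were followed here by name in the RNA-seq counts of sorted SIX2 cells: *Six2*, *Eya1*, *Osr1*, *Sall1*, *Wt1*, *Pax2*, *Meox1*, *Cited1* and *Cited2*. Each had 1 row among the 26858 genes of the deposited table, and all 9 passed the filter on low counts that left 14990 genes for testing. They were taken from the table by symbol. Cells were sorted from kidneys at E18.5 by the eGFP/Cre fusion protein that a bacterial artificial chromosome transgene expresses under the *Six2* promoter. The 4 control preparations came from *Six2-Qpc*+/− mice, in which the floxed *Qpc* gene (*Uqcrq*, subunit VII of mitochondrial complex III) is heterozygous, and the 5 mutant preparations from *Six2-Qpc*−/− mice, in which both alleles are floxed. Both genotypes therefore carried the transgene and at least 1 floxed allele, and no library from mice without Cre was analysed here. The labels do not state whether a preparation was 1 embryo or a pool, so the p-values measure the spread between these preparations.

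Cap mesenchyme cells surround the tips of the ureteric bud, where they either renew themselves or receive a WNT signal and convert to epithelium. SIX2 is the homeodomain protein that opposes this conversion, and EYA1 is its transcriptional cofactor. OSR1, SALL1 and WT1 are zinc finger proteins and PAX2 is a paired box protein, all required for a kidney to form. CITED1 and CITED2 do not bind DNA themselves and act through the coactivators CBP and p300. *Cited1* and the homeobox gene *Meox1* are known as markers of the least committed cap cells.

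The libraries held between 21040536 and 23986458 counts. The targeted gene *Uqcrq* was at 76.8 to 107 counts per 1000000 counts of the normalised library size (CPM) in control and at 16.5 to 28.2 CPM in mutant libraries (log2 fold change −2.14, standard error 0.16, adjusted p = 2.09e-05, edgeR). The source of the *Uqcrq* reads that remained in mutant libraries was not tested. The ureteric bud genes *Ret* and *Wnt9b*, the podocyte gene *Nphs1* and 5 of 6 endothelial markers averaged under 1 CPM over the libraries. The summed level of 11 stromal markers was 202 to 315 CPM in control and 430 to 892 CPM in mutant libraries, and 7 of the 10 tested were called higher in mutant cells, where 7.82% of all genes were. With a library left out, adjusted p-values (edgeR) reached 0.133 for *Acta2* and 0.0831 for *Col3a1*, whose calls were then lost. They reached 0.0218 for *Pdgfra* and 0.0184 for *Col1a1*. *Pdgfrb* had a log2 fold change of −0.51 and was not called. Mutant replicate 75 had the highest stromal sum. Blood cell markers, 5 of which were in the table, summed to 0.469 to 4.81 CPM in control and 4.82 to 36.8 CPM in mutant libraries, and 1 of the 3 tested, *Fcer1g*, was called higher (log2 fold change 3.34, adjusted p = 0.0471, edgeR). The endothelial markers summed to 2.57 to 5.52 and 3.94 to 9.33 CPM, and 1 of the 4 tested, *Pecam1*, was called higher (2.42, adjusted p = 0.0469, edgeR). Both calls were lost with some libraries left out, with adjusted p-values of up to 0.136 for *Fcer1g* and 0.102 for *Pecam1*. The part of stromal, blood and endothelial transcripts in the results below was not tested. In RNA from a sorted population, fewer cells that express a gene and less RNA of it per cell cannot be told apart. The authors could not fully exclude that some differentiating control cells with low eGFP were sorted as well. They also reported a smaller share of eGFP-positive cells in mutant kidneys. The part of such differences in the sorted cells in the results below was not tested.

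The *Six2* promoter is shown because it stands behind both the gate and the gene that names these cells: eGFP/Cre is driven from *Six2* regulatory sequence, so the level of *Six2* is tied to the way the cells were selected. RefSeq (GRCm38.p6) places the window from 250 bases before to 50 bases after the *Six2* start at chr17:85688205-85688504 on the minus strand. Capitals mark the CCAAT box (CCAAT) and GC boxes (GGGCGG) found on either strand.
Six2: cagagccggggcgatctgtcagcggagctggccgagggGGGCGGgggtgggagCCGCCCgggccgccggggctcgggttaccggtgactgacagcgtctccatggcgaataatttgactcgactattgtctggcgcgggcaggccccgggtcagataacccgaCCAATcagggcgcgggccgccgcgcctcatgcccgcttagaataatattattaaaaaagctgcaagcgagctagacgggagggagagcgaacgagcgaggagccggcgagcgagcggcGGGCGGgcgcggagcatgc
The CCAAT box began 87 bases before the start, and GC boxes began 212 and 197 bases before it and 31 bases after it. No TATAAA was found in this window. Over 32851 promoter windows of the same length, 37.4% held CCAAT, 35.7% held GGGCGG and 13.6% held TATAAA on either strand. The *Six2* window had 67.3% G and C and 1.13 times the CpG dinucleotides that its base composition gives, against medians of 52.7% and 0.384 over all windows. Promoter windows were matched for 5 of the 9 genes, and the G and C content of their listed starts ran from 54.7% for a start of *Pax2* to 79.7% for a start of *Sall1*, all above that median.

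Expressed per transcript length as a share of 1000000 transcripts (TPM), the 9 genes spanned a wide range. In control libraries *Six2* was the highest with 568 ± 86.8 TPM (SD, n = 4), followed by *Cited1* with 441 ± 63.2 TPM. *Osr1* and *Cited2* came next with 294 ± 59.4 and 254 ± 31.3 TPM. *Eya1* had 160 ± 37.2 TPM and *Wt1* 135 ± 14.8 TPM. *Sall1* was at 59.8 ± 14.4 TPM, *Meox1* at 37.6 ± 9.82 TPM and *Pax2* at 9.01 ± 2.71 TPM. The ranges of the control libraries overlapped for the neighbouring pairs *Six2* and *Cited1*, *Osr1* and *Cited2*, *Eya1* and *Wt1*, and *Sall1* and *Meox1*, so the order within these pairs was not beyond the spread between libraries, although *Sall1* was above *Meox1* in all 4. The other neighbours in the order did not overlap. The mean levels fell into the same order in mutant libraries, from 645 ± 121 TPM for *Six2* (SD, n = 5) to 5.58 ± 1.1 TPM for *Pax2*. In CPM, which is not corrected for length, 8 of the 9 genes were above the median of the genes tested and *Pax2* was below it.

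**Figure D1:**
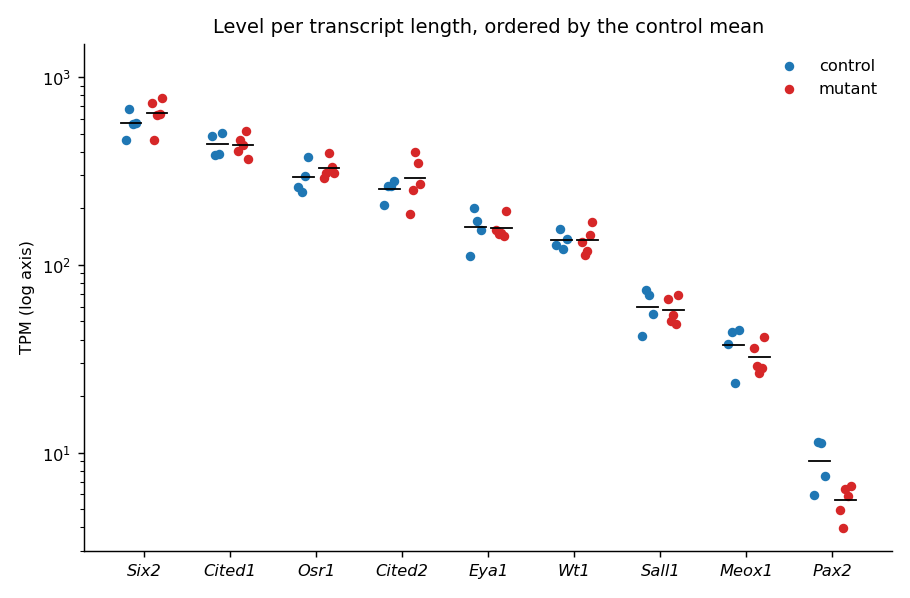
TPM (log axis) of the 9 genes in each of 4 control (blue) and 5 mutant (red) libraries, with black bars at the group means and genes ordered by the control mean. The order of the means was the same in both genotypes, from 568 TPM for *Six2* to 9.01 TPM for *Pax2* in control.

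The first question was whether these identity genes differed in level between sorted *Six2-Qpc*−/− cells and the heterozygous control cells. None of the 9 genes passed an adjusted p-value of 0.05 (edgeR quasi-likelihood test with Benjamini-Hochberg adjustment over 14990 genes). Of all genes tested, 14.8% passed. At that share few of 9 genes would pass, so a count of none does not set these genes apart. Not passing does not show that a level was unchanged. At an unadjusted p-value under 0.05, 2 of the 9 genes passed (*Six2* and *Pax2*), against 31.4% of all genes. DESeq2 called none of the 9 genes and 19.0% of those it tested, and limma-voom with sample quality weights called *Six2* and *Pax2* and 32.4% of all genes. Control and mutant libraries overlapped for all 9 genes. Of all genes, 15.2% had no overlap, a share that likewise gives few among 9. The fitted values were above 0 for 7 genes and below 0 for *Pax2* and *Meox1*. In TPM, which is scaled otherwise, mutant means were slightly the lower for *Cited1*, *Eya1* and *Sall1*. They were 437, 157 and 57.5 TPM, against 441, 160 and 59.8 TPM in control. The direction of such small differences thus depended on the measure. The median log2 fold change of the 9 genes was 0.11, against −0.0085 for all genes tested, and the median of the absolute values was 0.12 against 0.3. These medians were not matched for level, and 8 of the 9 genes were above the median level of the genes tested. Whether the smaller absolute values go with the level was not tested.

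**Figure D2:**
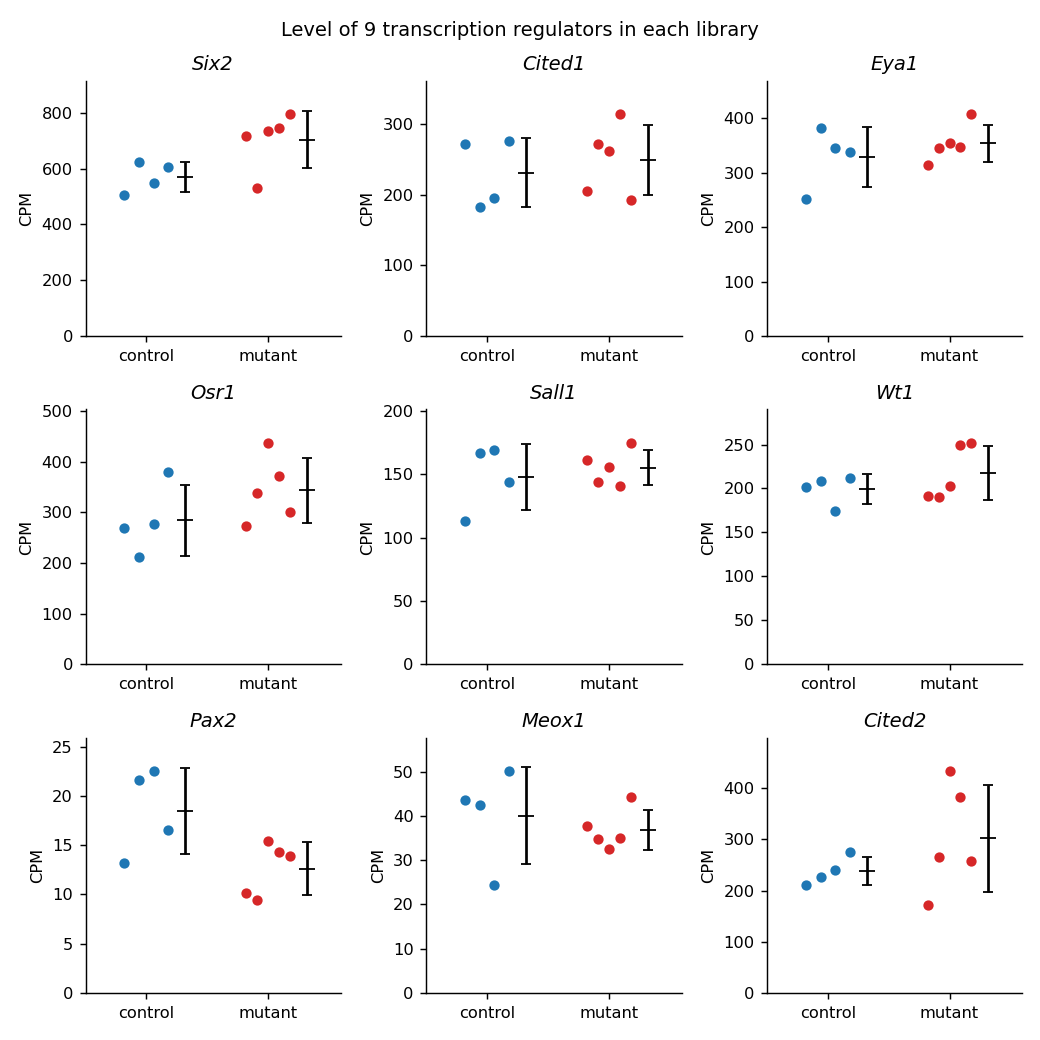
CPM of each gene in 4 control (blue) and 5 mutant (red) libraries, with the mean and SD beside the points and every axis starting at 0. The genotypes overlapped for all 9 genes, and 4 of 5 mutant points lay above all control points for *Six2*.

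Positions are those of the deposited table (mm10). *Six2* (ENSMUSG00000024134, chromosome 17, 85684277 to 85688274) had 506, 623, 548 and 606 CPM in control replicates 71, 72, 73 and 76 and 717, 529, 734, 745 and 795 CPM in mutant replicates 74, 75, 77, 78 and 79. Thus 4 of the 5 mutant libraries were above every control library, and only mutant replicate 75 lay within the control range. That library had the highest stromal sum, and a link between these values was not tested. The means were 571 ± 53.4 CPM (SD, n = 4) and 704 ± 102 CPM (SD, n = 5), a fold of 1.23 (95% interval 1.02 to 1.5) with an adjusted p-value of 0.131 (edgeR; 2-sided exact permutation test of the log2 CPM, p = 0.0714). Without mutant replicate 75, the mutant library with the lowest *Six2*, the log2 fold change went from 0.3 to 0.39 and the adjusted p-value to 0.0462 (edgeR). A fit with 1 surrogate variable, an estimated unmeasured factor, gave 0.36 and 0.0326. Over all alternatives tried the value for *Six2* ran from 0.25 to 0.39, and none gave a lower level in mutant cells. In 15 of 18 alternatives *Six2* did not pass the threshold. The adjusted p-values of these edgeR, DESeq2 and limma-voom fits ran from 0.0326 to 0.455, with 0.273 without control replicate 71 (edgeR).

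*Eya1* (ENSMUSG00000025932, chromosome 1, 14168954 to 14310235), whose product partners SIX2 and its relatives, had 251, 381, 346 and 337 CPM in the control libraries, in the same order as above, and 313, 346, 354, 347 and 407 CPM in the mutant libraries. The lowest library of all 9 was control replicate 71, and 4 of the 5 mutant libraries lay within the control range. The fold was 1.08 (95% interval 0.885 to 1.31, adjusted p = 0.625, edgeR). Without control replicate 71 the log2 fold change, 0.1 with all libraries, was −0.0056.

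Among the other DNA-binding factors, *Osr1* (ENSMUSG00000048387, chromosome 12, 9574442 to 9581499), one of the earliest genes of the kidney lineage, had 269, 212, 276 and 380 CPM in control and 272, 337, 437, 371 and 301 CPM in mutant libraries. Only mutant replicate 77 exceeded the highest control library, and the fold of 1.21 had a 95% interval from 0.934 to 1.56 (adjusted p = 0.303, edgeR). *Sall1* (ENSMUSG00000031665, chromosome 8, 89027248 to 89044162) was measured at 113, 167, 169 and 144 CPM in control and at 161, 144, 156, 141 and 175 CPM in mutant libraries. Its mutant values were the less variable, with a coefficient of variation of 8.83% against 17.5% in control, and the fold was 1.05 (95% interval 0.862 to 1.27, adjusted p = 0.763, edgeR). For *Wt1* (ENSMUSG00000016458, chromosome 2, 105126529 to 105173616), which is also expressed in podocytes, the values were 202, 209, 174 and 212 CPM in control and 192, 190, 203, 249 and 252 CPM in mutant libraries. Mutant replicates 78 and 79 were above the control range and the other mutant libraries within it, and the fold was 1.09 (95% interval 0.907 to 1.31, adjusted p = 0.529, edgeR). The summed podocyte markers were at 38.5 to 61.3 CPM in control and 32.4 to 58.7 CPM in mutant libraries. The fold intervals of *Eya1*, *Sall1* and *Wt1* all lay between 0.862 and 1.31.

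*Pax2* (ENSMUSG00000004231, chromosome 19, 44756045 to 44837871) had the largest absolute log2 fold change of the 9 genes and the lowest level. Its values were 13.2, 21.6, 22.5 and 16.5 CPM in control and 10.1, 9.39, 15.4, 14.3 and 13.9 CPM in mutant libraries, resting on 311 to 554 and on 212 to 306 reads. Mutant replicates 74 and 75 were below every control library, and the other 3 mutant libraries were above control replicate 71 and below the rest. The fold of mutant over control was 0.683 (95% interval 0.501 to 0.931) with an adjusted p-value of 0.0881 (edgeR; 2-sided exact permutation test, p = 0.0714). The log2 fold change was −0.55 (standard error 0.21). It was −0.63 with an adjusted p-value of 0.0204 in limma-voom, and −0.28 with 0.653 among the 2 control and 4 mutant libraries with Y-linked genes under 1 CPM, a comparison added after the data were seen. *Pax2* is also expressed in the ureteric bud and in early nephrons. The summed level of 8 ureteric bud markers was 44.9 to 63.4 CPM in control and 27.3 to 49.8 CPM in mutant libraries. None of the 3 tested was called. Most of this sum was *Hoxb7*, with means of 40.5 CPM in control and 29.3 CPM in mutant libraries. *Wnt11* followed with 12.9 and 7.17 CPM, while *Ret*, *Wnt9b*, *Gata3*, *Wnt7b* and *Aqp2* each averaged under 1 CPM. The part of ureteric bud cells in the *Pax2* values was not tested. The antisense gene *Gm20395*, within the bounds of *Pax2*, shares no annotated exon with it and had 7.68% as many counts.

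Of the coactivator genes, *Cited1* (ENSMUSG00000051159, chromosome X, 102247381 to 102252181) had 272, 183, 195 and 276 CPM in control and 205, 272, 262, 314 and 193 CPM in mutant libraries, with means of 232 ± 49.4 (SD, n = 4) and 249 ± 50.1 (SD, n = 5). Only mutant replicate 78 lay outside the control range. The fold of *Cited1* was 1.08 (95% interval 0.833 to 1.39, adjusted p = 0.716, edgeR). *Cited2* (ENSMUSG00000039910, chromosome 10, 17723228 to 17725673) had 211, 226, 240 and 276 CPM in control and 172, 266, 433, 382 and 257 CPM in mutant libraries. Mutant replicates 77 and 78 were above the control range and mutant replicate 74 below it, so that the coefficient of variation was 34.7% in mutant and 11.7% in control libraries. The fold of *Cited2* was 1.27 (95% interval 0.917 to 1.75, adjusted p = 0.304, edgeR). *Meox1* (ENSMUSG00000001493, chromosome 11, 101877510 to 101894374) had 43.5, 42.4, 24.3 and 50.1 CPM in control and 37.7, 34.8, 32.5, 35 and 44.2 CPM in mutant libraries. All 5 mutant libraries lay within the control range, which control replicate 73 set at its lower end, and the fold was 0.919 (95% interval 0.697 to 1.21, adjusted p = 0.697, edgeR).

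A ratio of counts within 1 library does not depend on how libraries are scaled, so each gene was also set against *Six2* of the same library, as a description. The mean log2 ratio differed between genotypes by −0.0078 for *Osr1* and −0.018 for *Cited2*, and by −0.18 to −0.21 for *Eya1*, *Wt1*, *Cited1* and *Sall1*, with SDs of 0.14 to 0.55 within a genotype and libraries that overlapped for each gene. *Meox1* differed by −0.37, with an SD of 0.44 over the control libraries. For *Pax2* the log2 ratio to *Six2* was −5.26, −4.85, −4.61 and −5.2 in control and −6.14, −5.82, −5.58, −5.7 and −5.84 in mutant libraries. All 5 mutant libraries were below all 4 control libraries, with means of −4.98 ± 0.31 (SD, n = 4) and −5.82 ± 0.21 (SD, n = 5). Of all genes tested, 15.8% had ratios to *Six2* that did not overlap between genotypes. In 13.8% the mutant ratios were the lower ones, a share close to that of 1 among these 8 genes. Both the higher mean of *Six2* and the lower mean of *Pax2* in mutant libraries enter this difference.

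**Figure D3:**
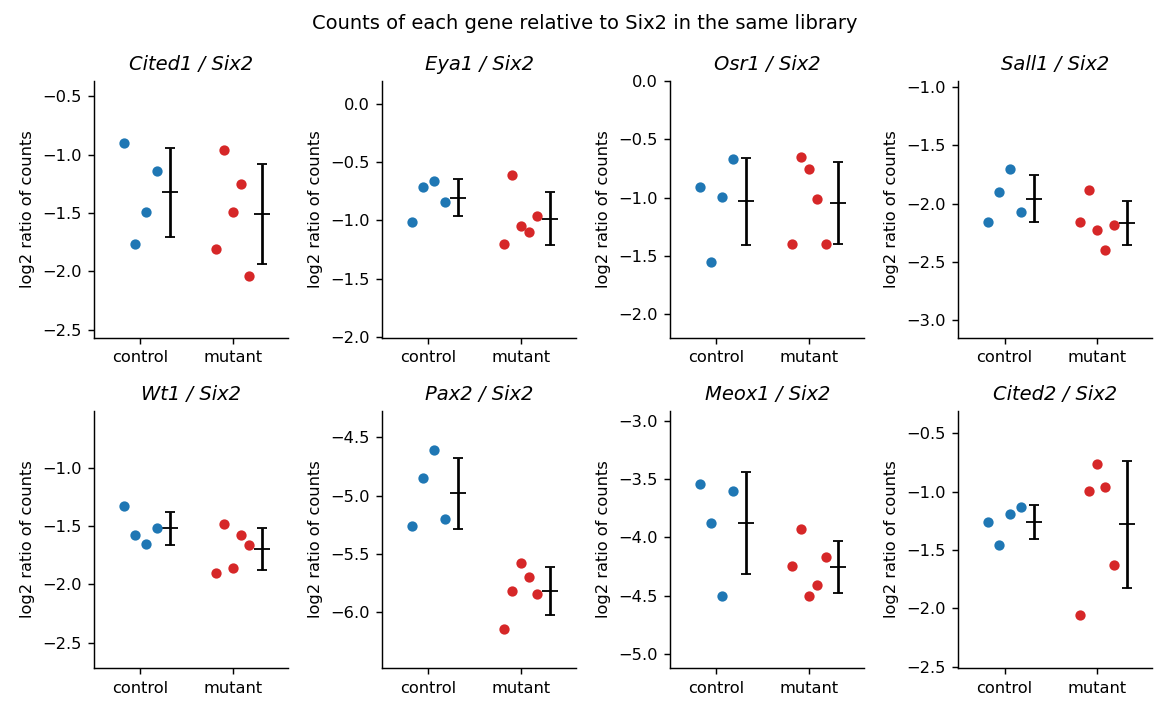
Log2 ratio of each gene's counts to those of *Six2* in the same library for 4 control (blue) and 5 mutant (red) libraries, with mean and SD beside the points; the panels have different offsets and the same span. Only for *Pax2* did the genotypes not overlap, with control at −5.26 or more and mutant at −5.58 or less.

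The paralogs of the 9 genes were measured in the same fit, and of 22 listed 10 were tested, among which 1 was called lower, where 7.02% of all genes were, and none higher. That gene was *Osr2*, at 19.6, 8.53, 22.7 and 15.2 CPM in control and 6.31, 4.16, 1.22, 4.03 and 3.18 CPM in mutant libraries. The genotypes did not overlap, and *Osr2* fell by 2.12 on the log2 scale (edgeR adjusted p = 0.00412, standard error 0.38), while *Osr1* in the same libraries had 0.27 with an adjusted p-value of 0.303. *Pax8*, a paired box gene that rises when cap cells convert to epithelium, had 182 CPM in control and 181 CPM in mutant libraries on average, with a fold of 0.999 (95% interval 0.751 to 1.33) whose sign changed between alternatives. *Eya2*, *Eya3* and *Eya4* had log2 fold changes of −0.38, 0.32 and 0.21, *Six4* and *Six5* of 0.63 and −0.25, *Sall2* of −0.25 and *Meox2* of −0.36, none of which passed the threshold.

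Among the relatives of *Six2*, *Six3*, better known from the developing forebrain and eye, was at 117, 142, 119 and 118 CPM in control and at 102 to 139 CPM in mutant libraries. The genotypes overlapped (log2 fold change −0.07, adjusted p = 0.732, edgeR), and the sign was turned, to 0.0012, without control replicate 72. *Six3* (chromosome 17, 85613608 to 85629302) lies 54974 bp from *Six2* (85684277 to 85688274). It shares 106 exonic bp with *Six3os1* on the opposite strand, which had 8.93% as many counts, so reads in that stretch cannot be assigned with certainty. Since both genotypes carried the *Six2* transgene, any part of the transgene in the *Six2* or *Six3* counts cannot be told apart from that of the endogenous genes.

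Other genes of the cap mesenchyme were taken from a list of 22, of which 21 were tested. Higher levels in mutant cells were called for 4 of them, where 7.82% of all genes were called higher, and lower levels for 2, where 7.02% were. *Capn6*, a calpain-like protein without protease activity, rose from a mean of 755 to 1320 CPM with no overlap between genotypes (log2 fold change 0.81, standard error 0.15, adjusted p = 0.0043, edgeR). *Phf19*, an accessory subunit of a Polycomb repressive complex, also rose with no overlap, from 34.3 to 54.1 CPM (0.66, adjusted p = 0.0178, edgeR). Its call was lost without control replicate 72 or 73, with adjusted p-values of 0.0571 and 0.0667. *Traf1* (0.64) and *Pla2g7* (0.61) passed the threshold with overlapping libraries. The call for *Traf1* was lost without control replicate 71 or 73 or mutant replicate 77 or 79, and that for *Pla2g7* was lost with the Y-linked covariate and when any library but control replicate 76 or mutant replicate 74 was left out. *Tmem100* fell from 45.8 to 23.2 CPM (−0.98, adjusted p = 0.0124, edgeR) and *Spock2* from 92 to 54.9 CPM (−0.74, adjusted p = 0.0144, edgeR), both without overlap. The other 15 genes did not pass. Among them were *Gdnf*, the cap signal to the ureteric bud (−0.4), and *Itga8*, an integrin of the same axis (−0.0037). *Hoxa11* and *Hoxd11*, which act with EYA1 and PAX2 on *Six2* and *Gdnf*, had −0.64 and −0.27. The rest were *Six4* (0.63), *Robo2* (0.55), *Fgfr1* (0.33), *Hoxc11* (0.32), *Bmp7* (0.27), *Uncx* (0.2), *Fgf20* (−0.08), *Dpf3* (−0.15), *Crym* (−0.42), *Ncam1* (−0.48) and *Fgf9* (0.75). *Fgf9* averaged only 0.896 CPM in control and 1.51 CPM in mutant libraries, and the 95% interval of its log2 fold change was −0.6 to 2.1. Over the 21 genes the log2 fold changes ran from −0.98 to 0.81 with a median of 0.2. The number called was 3 without control replicate 73 and 9 without mutant replicate 74, and it was 10 with limma-voom. The number over all genes moved as well. It was 1046 of 15267 without control replicate 73, 3136 of 14790 without mutant replicate 74 and 32.4% with limma-voom. In the 2 control and 4 mutant libraries with Y-linked genes under 1 CPM none of the 21 genes was called (edgeR). *Osr2* had a log2 fold change of −2.15 there, with an adjusted p-value of 0.062 (edgeR). With these fewer libraries 90 of all 15491 genes tested were called.

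**Figure D4:**
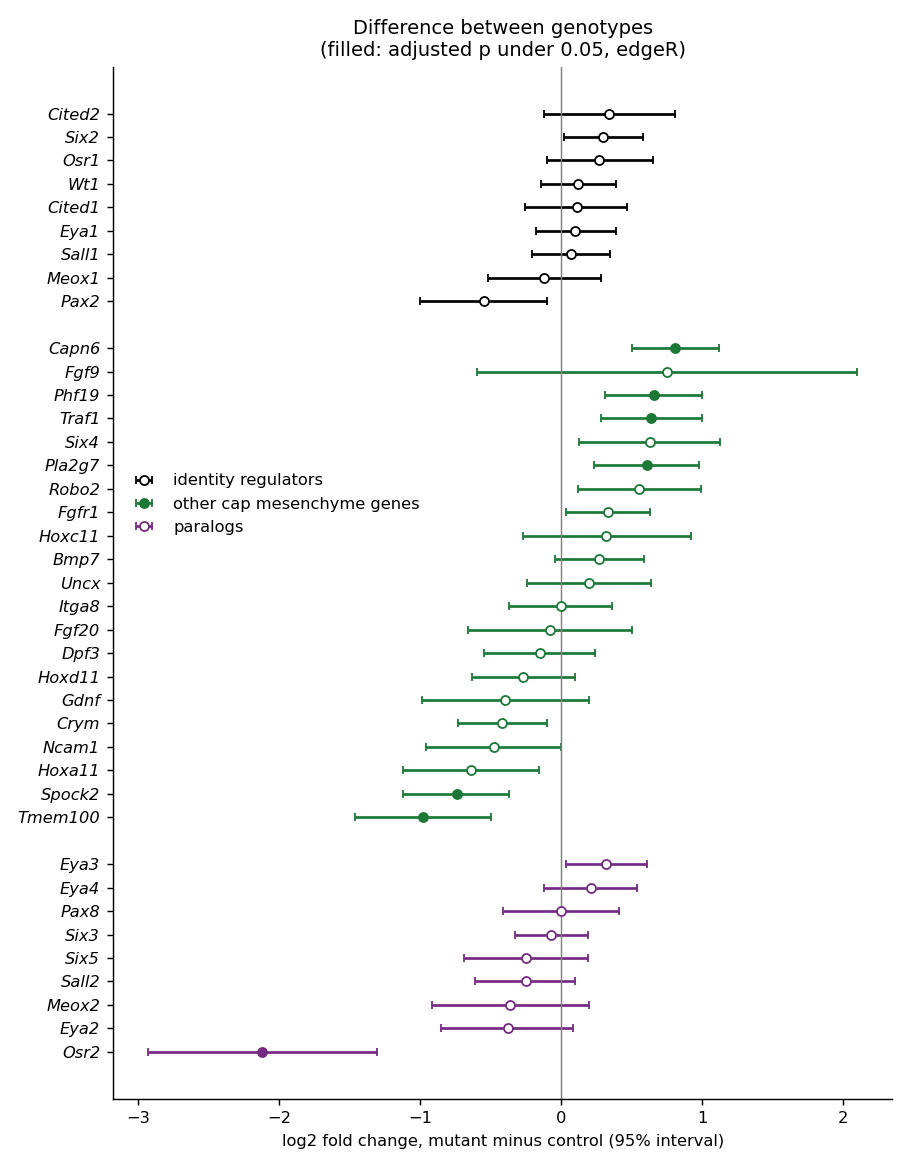
Log2 fold change, mutant minus control, with its 95% interval from edgeR for the 9 identity genes (black), 21 other cap mesenchyme genes (green) and the tested paralogs that are not among them (purple); filled points passed an adjusted p-value of 0.05. None of the black points is filled, and the largest fall among the paralogs is that of *Osr2* at −2.12.

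Markers of commitment were measured in the same cells. Of 12 genes listed for the pretubular aggregate and renal vesicle, 11 were tested and 3 were called lower (7.02% of all genes were), *Lhx1*, *Wnt4* and *Ccnd1*, with log2 fold changes of −2.36, −1.76 and −1.23 and a median of −0.81 over the 11. Their summed level was 440 to 815 CPM in control and 306 to 477 CPM in mutant libraries. The call for *Ccnd1* (adjusted p = 0.0438, edgeR) was lost when any library but control replicate 76 or mutant replicate 74 was left out, with adjusted p-values up to 0.128. In the libraries with Y-linked genes under 1 CPM the log2 fold changes were −1.79 for *Lhx1*, −1.38 for *Wnt4* and −0.46 for *Ccnd1*. The adjusted p-values there were 0.0864, 0.197 and 0.562 (edgeR), from fewer libraries. The 9 identity genes, by contrast, summed to 1880 to 2300 CPM in control and 2080 to 2630 CPM in mutant libraries, or 0.213 ± 0.0183% (SD, n = 4) and 0.23 ± 0.0212% (SD, n = 5) of all counts. Whether the identity genes and the commitment genes differed from each other in their response was not tested.

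The libraries of 1 genotype varied in ways that set some of these genes against each other. After the genotype means were removed, *Eya1* and *Sall1* had the highest correlation over the 9 libraries (r = 0.836), followed by *Osr1* and *Cited2* (0.766), and *Cited1* and *Sall1* the lowest (−0.815). These values describe 9 libraries that share 1 scaling, and 36 pairs were computed. The genes most like *Six2* in this measure, among those with a mean of at least 10 CPM, were *Fem1a* (r = 0.962), *Rbm14* (0.96) and *Arhgap19* (0.958), none of which differed between genotypes past the threshold. Control replicates 72 and 73 and mutant replicate 79 expressed Y-linked genes (263 to 328 CPM summed over *Ddx3y*, *Eif2s3y*, *Kdm5d* and *Uty*), and the other 6 libraries under 1 CPM. The X-linked gene *Cited1* was lowest in these 3 libraries, at 183 to 195 CPM against 205 to 314 CPM in the others, and *Sall1*, on chromosome 8, was highest in them, at 167 to 175 against 113 to 161 CPM. Of all genes tested, 1.88% were lower in these 3 libraries than in every other and 2.03% were higher. The share that was lower was 3.7% of 541 X-linked genes and 1.81% of 14447 autosomal genes. With Y-linked expression as a covariate the log2 fold change of *Cited1* between genotypes was −0.024 in place of 0.11, neither past the threshold.

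**Figure D5:**
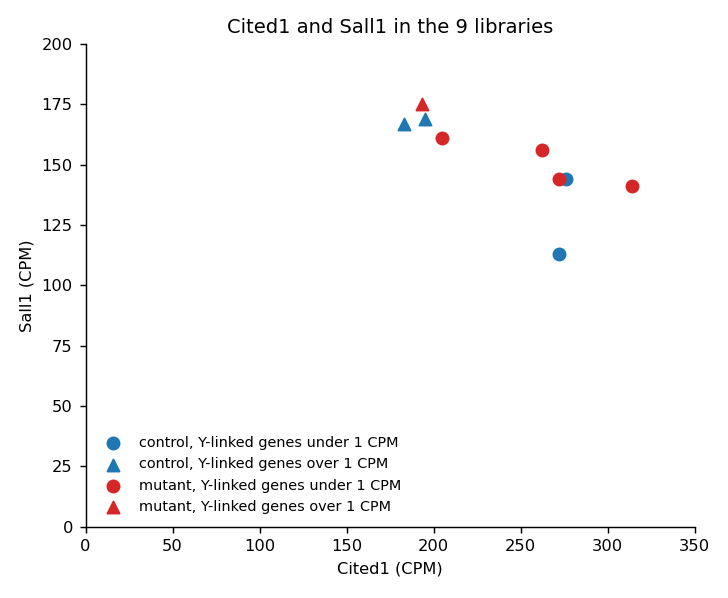
*Cited1* against *Sall1* in CPM for 4 control (blue) and 5 mutant (red) libraries, with triangles for libraries with Y-linked genes over 1 CPM; both axes start at 0. The 3 triangles lie at the lowest *Cited1* (183 to 195 CPM) and the highest *Sall1* values (167 to 175 CPM).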

How the data were processed

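RNA-seq of sorted SIX2 cells from 4 control and 5 mutant preparations was read from 1 table. Per the labels, cDNA was amplified from low-input RNA and made into poly(A)-selected libraries without strand information. The submitters' processing notes name STAR, DESeq2 and mm10, and their versions are not given in the sources used here. The authors counted reads per gene, and these deposited counts were used without their normalization. The deposited FPKM are the authors' counts per kilobase and per 1000000 summed counts, and served only to check levels per length. Columns with the authors' group means, fold changes and p-values were not used.

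edgeR 4.0.16 (under R 4.3.3) was run with filterByExpr on genotype, TMM normalization, robust quasi-likelihood test, Benjamini-Hochberg adjustment over all 14990 genes tested, threshold 0.05. Standard errors were recovered from the F statistic, and intervals are 95%. TPM were computed from counts and the table's gene lengths. Correlations used log2 CPM with a prior count of 2. Exact permutation tests covered all splits into 4 and 5, whose smallest p is 0.00794. Depth was at least 19.6 reads per CPM, so counting error is small for these genes beside the differences between libraries. The scripts were tested on simulated data. No 2 libraries agreed within sampling noise.

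Alternatives were DESeq2 1.42.0, limma-voom (limma 3.58.1) with quality weights, RLE and upper-quartile normalization, other filters, 1 surrogate variable (sva 3.50.0), a Y-linked covariate, unadjusted p-values, each library left out, and, added later, the libraries with Y-linked genes under 1 CPM. The genes and lists were chosen with earlier results of these data known. Named are the 9 genes, from each other list up to 4 called genes with the largest change, expressed paralogs, markers near 0, and the 3 genes most like *Six2* with a mean of at least 10 CPM. Further cap mesenchyme genes that did not pass, and *Gm20395* and *Six3os1*, were named after their values were seen. Lists were joined to the table by gene symbol. Promoter sequences are from RefSeq (GRCm38.p6), and overlaps from GENCODE on the same build. Some items are not reported here.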

Additional observations from a re-analysis of the deposited data

Results flagged for a closer look

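Among 60 groups of libraries examined, 2 held a library farther from the rest than a limit that chance passes in about 1 of 20. Control replicate 72 was high for *Six3*, at 142 CPM against 119 or less in the other control libraries. Mutant replicate 75 was high for the summed stromal markers, at 892 CPM against 551 or less in the other mutant libraries. It was also the lowest mutant library for *Six2*, at 529 CPM, and for *Wt1* and *Pax2*, but not for the other identity genes. A link between these values and the stromal sum was not tested. None of the 9 identity genes had a library past that limit in either genotype.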

How the results depend on the processing

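Of 162 log2 fold changes of the 9 genes over the alternatives, 150 kept their direction and their side of the threshold, 4 newly passed it and 8 changed sign. *Six2* newly passed with limma-voom (0.32), with 1 surrogate variable (0.36) and without mutant replicate 75 (from 0.25 to 0.39 over libraries left out), and *Pax2* with limma-voom (−0.63). *Cited1* changed sign with 1 surrogate variable (−0.066), with the Y-linked covariate (−0.024) and in libraries with Y-linked genes under 1 CPM (−0.063); *Sall1* with limma-voom (−0.05) and without control replicate 71 (−0.043, range to 0.14); *Meox1* with limma-voom (0.18) and without control replicate 76 (0.015, from −0.3); and *Eya1* without control replicate 71 (−0.0056, range to 0.18). None of these 8 values passed the threshold. *Six3* turned to 0.0012 without control replicate 72 (from −0.13) and *Pax8* to 0.011 (RLE), 0.012 (DESeq2), 0.034 (Y-linked covariate), 0.074 (libraries with Y-linked genes under 1 CPM) and, with a library left out, to values up to 0.13, from −0.14. The cause was not tested.

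Genes called in either direction numbered 2225 of 14990 (14.8%). Of the same 14990 genes, 4858 (32.4%) were called with limma-voom, 4709 (31.4%) at unadjusted p and 3111 with 1 surrogate variable. In the 2 control and 4 mutant libraries with Y-linked genes under 1 CPM, 90 of 15491 were called. With 1 library left out the number ran from 1046 of 15267 (without control replicate 73) to 3136 of 14790 (without mutant replicate 74). The counts for the lists below stand beside these totals. Identity genes called higher were 1 with limma-voom, 1 with 1 surrogate variable, 1 at unadjusted p and 0 to 1 with a library left out; those called lower were 1 with limma-voom and 1 at unadjusted p. Other cap mesenchyme genes called were 10 with limma-voom (4 lower), 12 at unadjusted p (7 higher, 5 lower), 0 in libraries with Y-linked genes under 1 CPM (0 higher, 0 lower), where fewer libraries were fitted, and 3 to 9 with a library left out (1 to 6 higher). The median over all genes stayed between −0.036 and 0.012. No paired analysis was possible because the replicate numbers of the genotypes differ.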
